A study of Rattus norvegicus with 11 samples.

Results

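Basement membrane genes were followed while rat embryonic stem cells were converted to hypoblast stem cells. The set was 10 named genes: Col4a1, Col4a2, Lama1, Lamb1, Lamc1, Nid1, Nid2, Sparc, Hspg2 and Serpinh1, the first 9 coding for components of the sheet or proteins bound to it and the last for a chaperone of collagen. Through the platform annotation 6 of the 10 were matched to a row of the expression table, out of 14506 genes tested in all. Each of the 6 had 1 row. Col4a2, Lamb1, Nid1 and Hspg2 were matched to no row and were not analysed here.

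A basement membrane is a thin sheet of extracellular matrix under epithelia. It is built from a network of laminin trimers and a network of type IV collagen, which nidogens and the proteoglycan perlecan (encoded by Hspg2) connect. The hypoblast, or primitive endoderm, lays down the first such sheets of the embryo, and its parietal endoderm descendants secrete the thick Reichert's membrane of the rodent yolk sac. Col4a1 encodes the alpha 1 chain of type IV collagen. Lama1 and Lamc1 encode the alpha 1 and gamma 1 chains of the main laminin of the early embryo, Nid2 a nidogen, Sparc a glycoprotein that binds collagen, and Serpinh1 a heat shock protein of the endoplasmic reticulum that binds procollagen while it folds.

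The cells were the rat line DAc2, and all arrays came from that 1 line. Before conversion they grew in N2B27 medium in 1 of 2 ways, both with the GSK3 inhibitor CHIR99021 at 3 µM. The feeder-free culture, on plates coated with laminin, also had the MEK inhibitor PD0325901 at 2 µM and human BMP4 at 5 ng/mL. The feeder culture, on mouse embryonic fibroblasts, had PD0325901 at 0.5 µM and no BMP4 is named for it. Conversion took place in the maintenance medium of rat multipotent adult progenitor cells, with 2% fetal bovine serum and the factors LIF, EGF and PDGF. RNA of days 0, 7, 17 and 32 was hybridised to 11 Affymetrix Rat Gene 1.0 ST arrays. Feeder-free day 0 had 1 array, each later feeder-free day 2, and every feeder day 1. Whether feeder cells were still present after day 0 is not given in the sources used here. The labels call the 2 feeder-free arrays of a day biological replicates and do not say whether they came from separate cultures. The p-values of fits with a mean for each group measure the spread between these arrays. Those of fits with a day and a culture term also count unlike changes of the 2 cultures as spread.

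Values are RMA values on the log2 scale, 1 unit being a doubling of signal. The table spanned 4.33 to 16.32, all arrays shared a median of 8.97, and replicates of a day correlated across genes at 0.997 to 0.998. Genes for vomeronasal and olfactory receptors, 188 in number, served as a background level, with 95% of their values below 7.97. All 6 basement membrane genes lay above that level on every array, the lowest value being 9.54. The 6 hypoblast markers Gata4, Gata6, Sox17, Sox7, Foxa2 and Pdgfra had a mean level of 9.53 at day 0 and 13.67 to 13.75 at day 32 in the feeder-free arm, and of 8.96 and 13.42 in the feeder arm, in the direction that the labels give. On the feeder array of day 7 this mean was 10.39, against 13.16 and 13.30 on the feeder-free arrays of that day. In such bulk RNA fewer cells of a type and less RNA per cell cannot be told apart.

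The sequences at the starts of the genes are shown first, because 5 of the 6 measured genes rose over the conversion and because Col4a1 shares its start region with the unmeasured Col4a2. In RefSeq on GRCr8, Col4a1 and Col4a2 lie head to head on chromosome 16, and 76 bases separate their starts. That stretch, chr16:84885521-84885596, is printed on the plus strand, that of Col4a1. For the laminin genes the 250 bases before the start are printed in the direction of the gene, for Lama1 chr9:115139298-115139547 on the plus strand and for Lamc1 chr13:68051987-68052236 on the minus strand. Capitals mark the GC box GGGCGG, the word CCAAT, the TATA box word TATAAA, and GATA words, which begin with A or T and end with A or G around those letters. All were searched on both strands. For Serpinh1 25 bases are printed, chr1:163062993-163063017 on the minus strand with capitals for a match to the heat shock element word.
Col4a1-Col4a2: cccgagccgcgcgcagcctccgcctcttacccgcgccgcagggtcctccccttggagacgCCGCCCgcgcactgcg
Lama1: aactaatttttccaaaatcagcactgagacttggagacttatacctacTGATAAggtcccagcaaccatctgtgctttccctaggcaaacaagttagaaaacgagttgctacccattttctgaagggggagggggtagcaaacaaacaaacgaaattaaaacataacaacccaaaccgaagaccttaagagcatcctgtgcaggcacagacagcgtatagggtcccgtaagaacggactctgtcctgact
Lamc1: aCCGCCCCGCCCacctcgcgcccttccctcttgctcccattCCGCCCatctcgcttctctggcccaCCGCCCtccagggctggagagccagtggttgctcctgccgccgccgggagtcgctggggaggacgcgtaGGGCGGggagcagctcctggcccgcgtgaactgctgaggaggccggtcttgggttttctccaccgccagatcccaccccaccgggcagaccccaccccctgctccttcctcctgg
Serpinh1: ccaactTTCCAGAAGTTTCttagga

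Start regions from 250 bases before to 50 after the start were listed for 9 of the 10 genes, all but Nid2. GC boxes, which the factor SP1 binds, were found in 7 of the 9, namely Col4a1, Col4a2, Lamb1, Lamc1, Nid1, Hspg2 and Serpinh1, against 34.9% of 27457 start regions of that length. Lamc1 held 5 of them, the outermost pair overlapping by 1 base, and Hspg2 held 6. The windows of Col4a1 and Col4a2 overlap and share words, among them the GC box printed. CCAAT was found in 4 of the 9, namely Col4a1, Col4a2, Lama1 and Nid1, against 37.7% of all regions. A GATA word stood only in the Lama1 region, 202 bases before the start, against 29.9% of all regions. The heat shock element stood only in the Serpinh1 region, beginning 35 bases before the start, against 0.736% of all regions. TATAAA, the SOX word ACAAT and the AP-1 word TGANTCA were in none of the 9 windows, against 14.3%, 33.1% and 7.33% of all. Such matches describe the letters of these windows and are not shown to be sites.

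From day 0 to day 7 the collagen chain, both laminin chains and the collagen chaperone rose. In limma, fitted to all 11 arrays with a day and a culture term, 4 of the 6 genes rose, where 6.74% of all genes tested rose. On the log2 scale the change, given with its SE, was 3.18 ± 0.70 for Serpinh1 (adjusted p = 0.0191), 3.12 ± 0.73 for Col4a1 (adjusted p = 0.0241), 2.00 ± 0.48 for Lama1 (adjusted p = 0.0253) and 1.80 ± 0.48 for Lamc1 (adjusted p = 0.0372). Sparc moved by 1.07 ± 0.45 and did not pass (adjusted p = 0.147), nor did Nid2 at 0.13 ± 0.20 (adjusted p = 0.719). The median change of the 6 was 1.90 and that of all genes -0.04. These shared estimates average 2 unlike arms, as the values by culture show, and the calls rested on single arrays: leaving out the feeder-free array of day 0, or either one of day 7, brought the count from 4 to 0. With the feeder-free array of day 0 left out, the change of Col4a1 was 1.79 and that of Serpinh1 1.55.

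**Figure D1:**
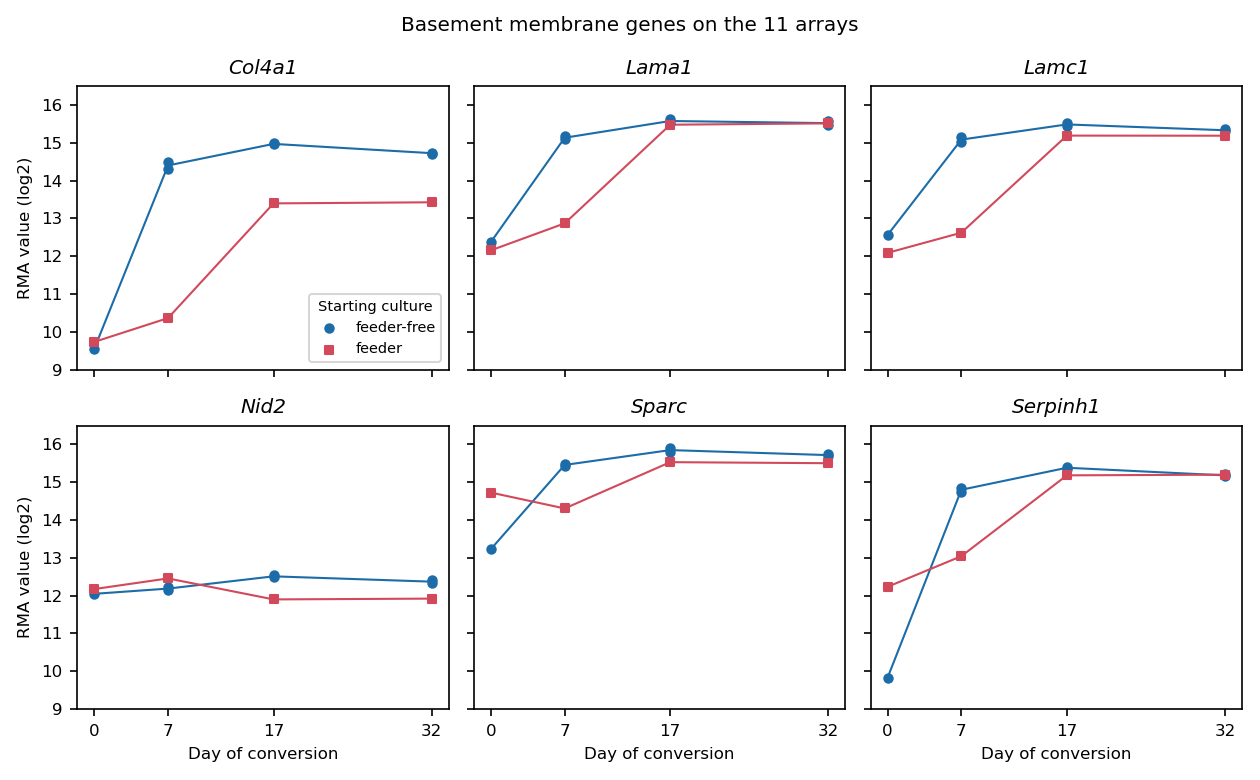
RMA value (log2, vertical axis) of the 6 measured genes against day of conversion (0, 7, 17 and 32), each point 1 array, circles feeder-free, squares feeder, lines through the group means. Feeder-free values of Col4a1, Lama1, Lamc1, Sparc and Serpinh1 are near their final level at day 7, feeder values only at day 17, and Nid2 stays between 11.90 and 12.54.

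Col4a1 stood apart between the cultures on every day after day 0. Without feeder cells it read 9.54 at day 0, 14.31 and 14.49 at day 7, 14.95 and 14.98 at day 17, and 14.74 and 14.71 at day 32. On feeder cells it read 9.73, 10.36, 13.40 and 13.42 on the same days. The day 0 arrays were the lowest of either arm, and from day 7 on every feeder-free array lay above every feeder array. In the first 7 days the feeder-free mean went up 29.0-fold and the feeder value 1.55-fold. The feeder change minus the feeder-free change was -4.22 ± 0.19 in limma with a mean for each group (adjusted p = 6.99e-09). In this test 5 of the 6 genes had the lower change on feeder cells, all but Nid2, and 11.2% of all genes did. From day 0 to day 32 the feeder-free change of 5.18 again exceeded the feeder change of 3.69 (difference -1.49 ± 0.19, adjusted p = 0.000185). Here 3 of the 6 genes had the lower change on feeder cells, against 4.73% of all genes. At day 32 the feeder array differed by -1.30 from the feeder-free mean of 14.72 ± 0.02 (SD, n = 2). Among its group levels only the feeder values of days 17 and 32 lay within 2 SD of each other, the SD being that of the feeder-free pairs pooled, 0.08.

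The laminin chains Lama1 and Lamc1 ran almost in parallel and ended at like levels in both arms. Lama1 without feeder cells read 12.37 at day 0, 15.09 and 15.17 at day 7, 15.52 and 15.63 at day 17, and 15.57 and 15.47 at day 32. On feeder cells it read 12.15, 12.87, 15.48 and 15.51. Its feeder value at day 7 lay nearest the day 0 values, -2.26 from the feeder-free mean, whereas at days 17 and 32 it differed by -0.10 and -0.01. Lamc1 without feeder cells read 12.56 at day 0, 15.03 and 15.14 at day 7, 15.45 and 15.52 at day 17, and 15.36 and 15.30 at day 32. On feeder cells Lamc1 read 12.09, 12.62, 15.19 and 15.19. For this chain too the feeder value of day 7 lay with day 0, -2.46 from the feeder-free mean, with no overlap. The difference in the change to day 7 was -2.05 ± 0.19 for Lama1 (adjusted p = 3.08e-06) and -1.99 ± 0.19 for Lamc1 (adjusted p = 3.68e-06). Over the whole 32 days the difference did not pass in limma for either gene: it was 0.21 for Lama1 with a 95% interval of -0.20 to 0.62 (adjusted p = 0.604), and 0.33 for Lamc1 with one of -0.08 to 0.73 (adjusted p = 0.355). In order of level, the Lama1 values of both arms at day 32, of the feeder arm at day 17 and of the feeder-free arm at day 17 were neighbours within 2 SD. For Lamc1 the feeder value of day 7 was within 2 SD of the feeder-free value of day 0.

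Serpinh1, the chaperone, and Sparc shared a feature that the chains lacked, a high value on the feeder array of day 0. Serpinh1 without feeder cells read 9.82 at day 0, 14.75 and 14.85 at day 7, 15.36 and 15.41 at day 17, and 15.21 and 15.15 at day 32. On feeder cells it read 12.23, 13.04, 15.18 and 15.20. The feeder culture thus lay 2.41 above the feeder-free one at day 0, a 5.31-fold difference between 1 array and 1 array with no test, and at day 32 the arms were 0.02 apart. Sparc without feeder cells read 13.23 at day 0, 15.43 and 15.49 at day 7, 15.80 and 15.90 at day 17, and 15.75 and 15.69 at day 32. On feeder cells Sparc read 14.73, 14.31, 15.53 and 15.50. The feeder value of day 0 was 1.50 above the feeder-free one, at day 7 the feeder value was the lower, and at day 32 it differed by -0.21. For both genes the difference in the change over 32 days thus lies mostly in the day 0 arrays. Its test rests there on 1 array of each culture. The difference in the change to day 7 was -4.17 ± 0.19 for Serpinh1 (adjusted p = 6.26e-09) and -2.65 ± 0.19 for Sparc (adjusted p = 2.73e-07). Over the 32 days it was -2.39 ± 0.19 for Serpinh1 (adjusted p = 2.41e-06) and -1.71 ± 0.19 for Sparc (adjusted p = 3.69e-05).

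Fibroblast markers were in their mean also higher on the feeder array of day 0. From day 0 to day 7 on feeder cells that mean and Sparc fell, while Serpinh1 rose from 12.23 to 13.04. The mean level of 8 such markers was 9.99 on the feeder array of day 0, 8.75 on that of day 7, 8.04 and 8.11 on those of days 17 and 32, and 8.05 to 8.14 on the 7 feeder-free arrays. Col1a1, a chain of fibrillar collagen, read 13.13 on the feeder array of day 0 against 9.96 on the feeder-free one, and Postn, periostin, 11.79 against 6.80. Thy1 differed less, at 8.83 against 8.12. Dcn and Lum stayed below the background level of 7.97 on all arrays. The feeder cells are of mouse and the probes of rat, and the part of fibroblast RNA in the Serpinh1 and Sparc values was not tested. Without the feeder day 0 array the Sparc change to day 7 was 2.03, and without the feeder array of day 7 it was 1.59. Without the feeder-free array of day 0 it was -0.027. Without the feeder day 0 array the day 0 to day 32 changes were 5.58 for Serpinh1 and 2.60 for Sparc. Without the feeder-free one they were 2.52 and 0.55. On the feeder array of day 7, where all 5 genes other than Nid2 were below the feeder-free arrays, the fibroblast mean was above them.

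**Figure D2:**
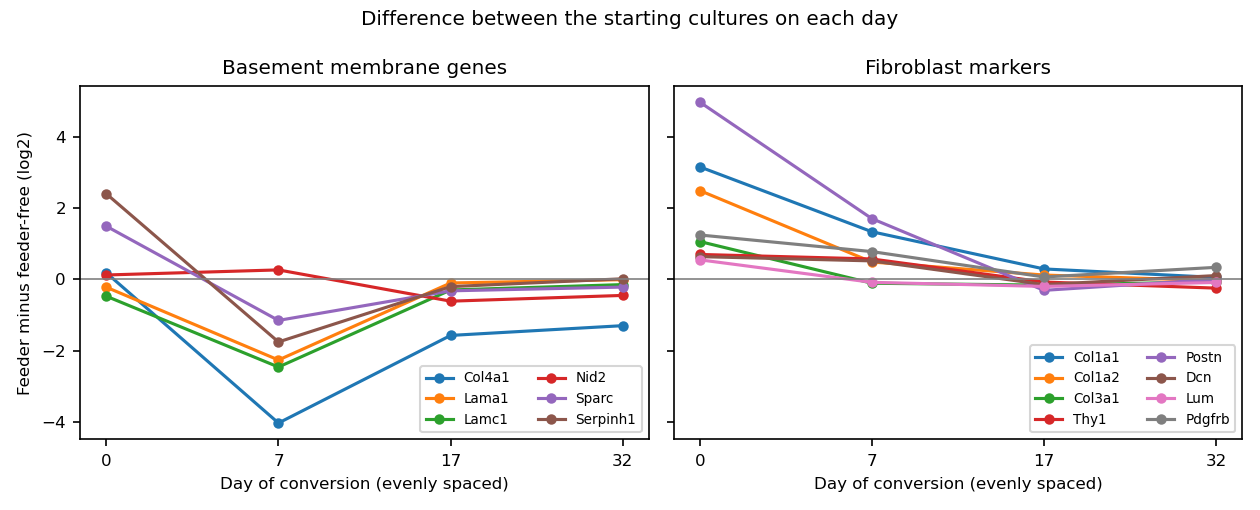
Difference between the cultures, feeder value minus feeder-free mean (log2, vertical axis), on each day (horizontal axis, evenly spaced) for the 6 genes (left) and 8 fibroblast markers (right), each line 1 gene. At day 0 Serpinh1 and Sparc lie at 2.41 and 1.50 while fibroblast markers such as Postn are high; at day 7 Col4a1, Lama1, Lamc1, Sparc and Serpinh1 lie below 0, from -1.15 to -4.04.

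Nid2 did not follow the others. Without feeder cells it read 12.05 at day 0, 12.15 and 12.22 at day 7, 12.48 and 12.54 at day 17, and 12.42 and 12.32 at day 32, and on feeder cells 12.17, 12.46, 11.90 and 11.92. All 11 values lay within 1 unit, while the other genes spanned more than 2. The day 0 to day 32 change was 0.08 with a 95% interval of -0.37 to 0.53 (limma adjusted p = 0.815). From day 7 to day 17 the feeder-free mean moved by 0.32 and the feeder value by -0.56, a difference of -0.88 ± 0.17 (adjusted p = 0.00215). Its partner Nid1, the other nidogen gene, was not analysed here.

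Between days 7 and 17 the feeder arm moved further and the feeder-free arm little. On feeder cells Col4a1 went up by 3.03, Lama1 by 2.61, Lamc1 by 2.57, Serpinh1 by 2.14 and Sparc by 1.22. Without feeder cells the same 5 genes moved by 0.39 to 0.58. The difference between the cultures passed for all 6 genes: 5 had the higher change on feeder cells, where 10.7% of all genes did, from 0.83 ± 0.17 for Sparc (adjusted p = 0.00316) to 2.46 ± 0.18 for Col4a1 (adjusted p = 4.88e-07), and Nid2 the lower, where 8.97% did. In the limma fit of a shared change 0 of 6 passed, against 12.8% of all genes, and 2 of 6 had an unadjusted p under 0.05, as had 30.4% of all genes. That fit counts the distance between the arms at day 7 as spread. With a mean for each group 5 of 6 passed, where 36.9% of all genes did, and with the feeder-free arrays alone 6 of 6, where 23.8% did. With single arrays left out the count was 1 without either day 0 array (16.2% of all genes) and 2 without the feeder array of day 7 (12.8%). Of the calls over all genes 71.4% were rises, and 50.1% after a further quantile normalization.

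**Figure D3:**
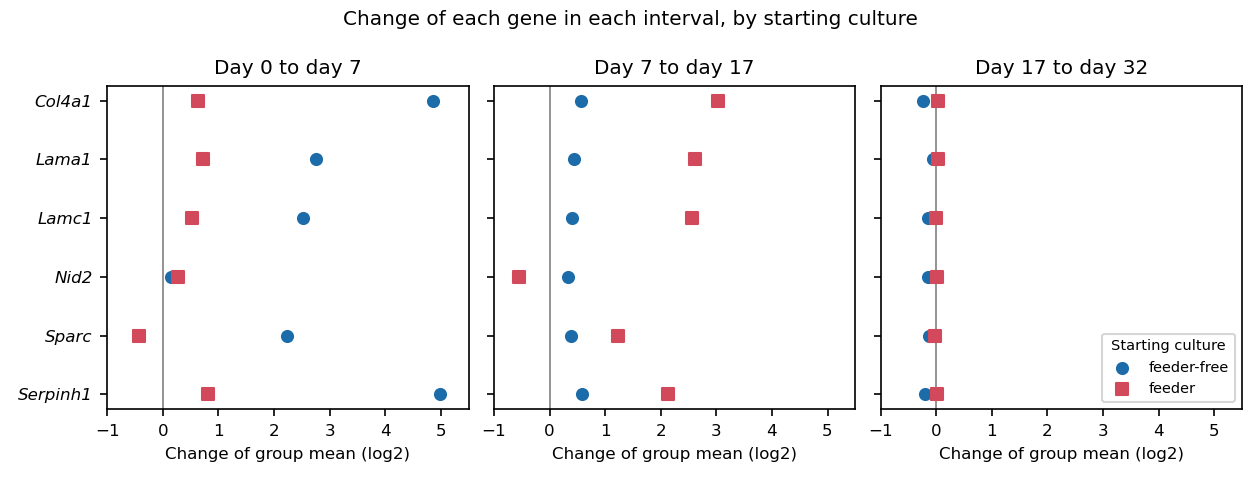
Change of each gene's group mean (log2, horizontal axis) from day 0 to 7, 7 to 17 and 17 to 32, circles feeder-free, squares feeder. Feeder-free changes are large in the first interval (up to 4.98) and feeder changes in the second (up to 3.03), and no change in the third exceeds 0.25 in size.

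By day 7 the feeder-free cells had made 87.7% to 93.7% of their day 32 change, on the log2 scale, in Col4a1, Lama1, Lamc1, Sparc and Serpinh1. On feeder cells Col4a1 had made 17.1%, Lamc1 17.2%, Lama1 21.3% and Serpinh1 27.3% of theirs, while Sparc stood at -0.42 from day 0 at day 7 and at 0.78 at day 32. Markers of other cells also stood apart at day 7. The mean of 6 trophoblast markers was 12.03 and 12.17 on the feeder-free arrays of day 7, 10.66 on the feeder array, and 9.15 to 9.94 on all others. Not all 6 rose from day 0 to day 7 without feeder cells. Elf5, Gata3, Hand1 and Plac1 did, whereas Cdx2 went from 11.14 to 9.71 and Tfap2c from 12.48 to 12.34. The mean of 5 endothelial markers was 10.07 and 10.15 on the feeder-free arrays of day 7 and 8.86 to 9.21 on all others. Its members differed: from day 0 to day 7 without feeder cells Cdh5, a cadherin, went from 8.97 to 13.63, whereas Pecam1, an adhesion molecule, went from 12.29 to 10.89. The part of such cells in the day 7 levels was not tested.

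From day 17 to day 32 no change of the 6 genes passed the test. In limma 0 of 6 passed, as did 0% of all genes, and none of the 6 had an unadjusted p under 0.05, which 1057 of all genes had. The changes ran from -0.15 for Col4a1 (95% interval -1.63 to 1.32) to -0.03 for Lama1 (95% interval -0.99 to 0.94). Here too the shared fit counts the distance between the arms at day 7 as spread. In a limma fit of the feeder-free arrays of days 7, 17 and 32, with a term for the replicate number, 1184 of all genes passed and 0 of the 6. The feeder-free means of all 6 genes moved down by small amounts, from -0.06 for Lama1 to -0.25 for Col4a1, and the feeder values moved by -0.03 to 0.04. With the arrays of days 17 and 32 alone, a setting chosen after seeing the data, 0 of 6 passed as well. Over all genes 0 to 1184 passed across the alternatives run, that setting among them.

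From day 0 to day 32 all but Nid2 rose. The count was 5 of 6 in limma, where 17.4% of all genes rose, and the median change was 2.98 against 0.05 over all genes. Col4a1 rose by 4.35 ± 0.73 (adjusted p = 0.00255), Serpinh1 by 4.15 ± 0.70 (adjusted p = 0.00251), Lama1 by 3.14 ± 0.48 (adjusted p = 0.00163), Lamc1 by 2.82 ± 0.48 (adjusted p = 0.00273) and Sparc by 1.64 ± 0.45 (adjusted p = 0.023). By group means, as folds, Serpinh1 ended 41.0 times higher without feeder cells and 7.82 times on them, and Sparc 5.61 and 1.71 times. Sparc missed the threshold when the feeder-free array of day 0 (0.55, adjusted p = 0.24), either feeder-free array of day 32 (1.62 and 1.65) or the feeder array of day 32 (1.68) was left out. Over all days the feeder values differed from the feeder-free ones by -1.81 ± 0.50 in Col4a1 (limma adjusted p = 0.024). This was 1 of 6 genes lower on feeder cells, against 17.2% of all genes, and leaving out the feeder array of day 17 it missed the threshold (-1.89, adjusted p = 0.0605). The count became 2 when either day 0 array was left out and 3 when the feeder array of day 7 was. Over all genes 4749 passed in either direction in the full fit, and 3738 to 4970 when leaving out each array. At days 17 and 32 the values of Lama1, Lamc1, Sparc and Serpinh1 stood between 15.15 and 15.90, near the highest value of the table, 16.32. By the mean over all arrays, days 0 and 7 included, 55 of 14506 genes lay above 15. Genes at such levels on days 17 and 32 alone were not counted.

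Within the set the profiles of Lama1 and Lamc1 were the closest pair. With each gene's 8 group means centred on their own mean, the root mean square distance of the 2 genes was 0.16, and 2 genes of the table lay nearer to each. The next closest pair, Lamc1 and Sparc, was 0.80 apart. Col4a1 stood 0.84 from Lama1 and 0.95 from Serpinh1. Outside the set the genes nearest to the median profile of the 6 were Sh3tc1 (distance 0.15), Arhgap9 (0.18), Colgalt1 (0.18), Lrp2 (0.20) and Adora1 (0.20). That profile was near only Lamc1 and Lama1 (0.20 each) within the set. Sparc stood at 0.67 from it, Serpinh1 at 0.81, Col4a1 at 0.91 and Nid2 at 1.32. Colgalt1 encodes a galactosyltransferase that modifies collagen, and Lrp2 the endocytic receptor megalin. Colgalt1 had means of 10.99, 13.79, 14.31 and 14.06 without feeder cells and 11.48, 11.73, 14.18 and 14.09 on them. The nearest gene to Serpinh1 was Dab2, an endocytic adaptor of the extraembryonic endoderm, at 0.35. These distances, over 8 groups, are descriptions, and the genes share arrays.

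Genes that modify and export collagen mostly rose with the set. Of 15 measured in this list 12 rose from day 0 to day 32 and 0 fell, against 17.4% and 13.7% of all genes, with a median change of 1.76 against 0.05 for all genes. P3h2, a prolyl 3-hydroxylase, rose by 5.58 ± 0.78 (adjusted p = 0.00116), Plod1, a lysyl hydroxylase, by 3.35 ± 0.54 (adjusted p = 0.0021), P4ha2, a subunit of prolyl 4-hydroxylase, by 3.15 ± 0.57 (adjusted p = 0.00361) and Plod2 by 2.79 ± 0.42 (adjusted p = 0.00154). Crtap, P3h3 and P4ha3 did not pass. The day 0 levels of P3h2 lay below the background level of 7.97, so the size of its change is uncertain. By day 7 its feeder-free mean had moved from 7.75 to 13.26 and the feeder value from 7.86 to 8.99. The change to day 7 was lower on feeder cells for 8 of the 15, against 11.2% of all genes, and higher for 0. When the feeder-free array of day 0 was left out, 7 of 15 rose from day 0 to day 32, against 9.94% of all genes.

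Other components of basement membranes were called about as often as all genes. Of 16 measured 3 rose and 2 fell from day 0 to day 32, where 17.4% of all genes rose and 13.7% fell, with a median change of 0.06. Tinagl1, a matrix protein related to tubulointerstitial nephritis antigen, rose by 4.74 ± 0.54 (adjusted p = 0.000502), Egflam, or pikachurin, by 3.35 ± 0.56 (adjusted p = 0.00253) and Fbln1, fibulin 1, by 1.20 ± 0.17 (adjusted p = 0.00125). Both day 0 levels of Egflam, 7.64 and 7.93, lay below the background level of 7.97, so the size of its change is uncertain. Fras1 fell by 1.35 ± 0.37 (adjusted p = 0.0239). The laminin chain genes Lama3, Lama5, Lamb2, Lamb3 and Lamc3 moved by -0.58 to 0.36 and none passed, nor did the collagen genes Col4a3 (0.17) and Col4a4 (0.04). The falls numbered 0 when the feeder-free array of day 0, the first of day 32 or the feeder array of day 32 was left out, 1 when the second feeder-free array of day 17 was, and 4 when the feeder array of day 7 was. Without the feeder-free array of day 0 7.54% of all genes fell. The calls over all genes in either direction ran from 2536 to 5528 when leaving out each array, against 4504 in the full fit.

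**Figure D4:**
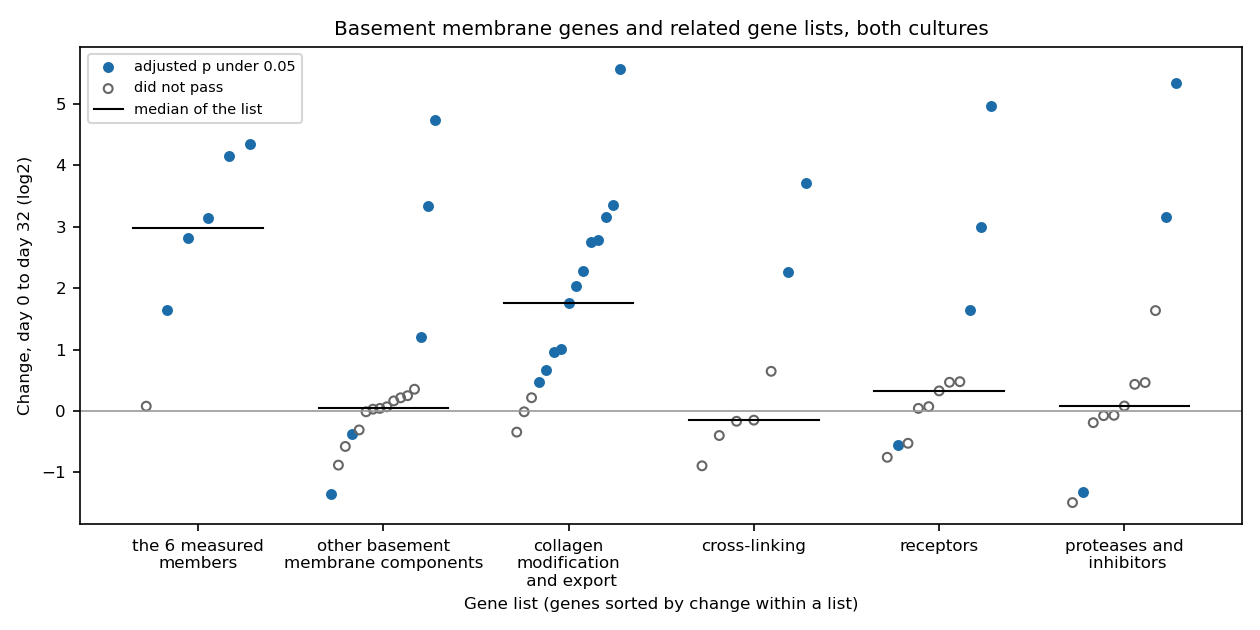
Change from day 0 to day 32 (log2, vertical axis, limma over both cultures) of the 6 measured genes and of the genes of 5 related lists (horizontal axis), each point 1 gene, filled where the adjusted p was under 0.05, lines at the list medians. The medians are 2.98 for the 6 genes, 0.06 for other components and 1.76 for collagen modification and export.

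Of the cross-linking enzymes 2 of 7 rose, of the receptors 3 of 11 rose and 1 fell, and of the proteases and inhibitors 2 of 11 rose and 1 fell, where 17.4% of all genes rose and 13.7% fell. Of the 7 cross-linking genes Pxdn, the peroxidase that makes sulfilimine bonds in type IV collagen, rose by 3.72 ± 0.77 (adjusted p = 0.00651) and Loxl2, a lysyl oxidase, by 2.27 ± 0.46 (adjusted p = 0.00567). Pxdn lay below the background level at day 0 in both arms (6.13 and 6.99) and on the feeder array of day 7 (6.86), so the size of its change is uncertain. Lox, Loxl1, Loxl3, Loxl4 and Tgm2 did not pass, and the list median was -0.15. Among the receptors Itga2, an integrin chain of a collagen receptor, rose by 4.97 ± 0.72 (adjusted p = 0.00138), Sdc4, a syndecan, by 2.99 ± 0.42 (adjusted p = 0.00117) and Itga6, an integrin chain of a laminin receptor, by 1.65 ± 0.21 (adjusted p = 0.000723). Ddr1, a collagen receptor kinase, fell by 0.56 ± 0.13 (adjusted p = 0.0122). The shared partner Itgb1 moved by 0.04. Among the proteases and inhibitors Htra1, a serine protease, rose by 5.34 ± 1.08 (adjusted p = 0.00596), Timp2, a metalloproteinase inhibitor, rose by 3.16 ± 0.79 (adjusted p = 0.0157), and Mmp14, a membrane metalloproteinase, fell by 1.31 ± 0.20 (adjusted p = 0.00179). The feeder-free day 0 level of Htra1, 7.71, was below the background level and that on feeder cells, 10.29, above it, so the size of its change is uncertain. With the feeder-free array of day 0 left out 0 of 7 cross-linking genes rose and 1 fell, and 0 of 11 proteases and inhibitors rose and 2 fell. In that setting 9.94% of all genes rose and 7.54% fell. With the feeder array of day 0 left out 4 proteases and inhibitors rose. With that of day 7 left out 5 receptors rose and 3 fell, and 3 cross-linking genes rose and 1 fell. The receptor falls numbered 2 without the second feeder-free array of day 32 and 0 without the feeder array of day 32. The calls over all genes, 4504 in the full fit, also moved, from 2536 to 5528 when leaving out each array.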

How the data were processed

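Expression was measured on 11 Rat Gene 1.0 ST arrays. The authors deposited 1 table of log2 values. RMA is the method named, per the submitters' processing notes, without version or options. All arrays share a median but not quartiles, and the step that set it is not known. Of 29214 rows 15310 had 1 gene symbol, 323 several and 13581 none. Gene IDs or accessions of 15285 rows matched RefSeq on GRCr8, and 2 symbols were updated. Of the 527 genes with several rows the row with the highest mean was used, leaving 14506 genes, with no filter on dim ones. The array number limits precision, and with only the table at hand spot background and saturation were not examined.

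All genes were fitted with limma 3.58.1 in R 4.3.3 (lmFit, eBayes), with terms for day and culture (6 residual degrees of freedom), or with a mean for each of 8 groups (3 residual and 10.3 prior degrees of freedom, so the spread leans on that of all genes, and single arrays are assumed to vary like the feeder-free pairs). P values were adjusted by Benjamini-Hochberg over all genes, with calls under 0.05. The fits were run on simulated data. For the fit of day and culture terms the simulated cultures changed alike, unlike these arrays. That run therefore does not measure its power or error here. Genes named from each related list were the up to 4 called with the largest day 0 to day 32 change. The members and lists were chosen with earlier results of these data known. Same-numbered arrays did not deviate together. Alternatives were the mean of rows, a filter on the dimmest 25%, quantile normalization, median centring, eBayes with trend and robust, other models and a replicate block. Each array was also left out in turn where the comparison could still be made. Figures were drawn with matplotlib 3.10.9.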

Additional observations from a re-analysis of the deposited data

Results flagged for a closer look

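The changes of the measured basement membrane genes differed between the cultures, each by a test of the difference itself (limma with a mean for each group, feeder change minus feeder-free change, log2). From day 0 to day 7 the difference was -4.22 for Col4a1, -2.05 for Lama1, -1.99 for Lamc1, -2.65 for Sparc and -4.17 for Serpinh1. From day 7 to day 17 it was 2.46 for Col4a1, 2.17 for Lama1, 2.17 for Lamc1, -0.88 for Nid2, 0.83 for Sparc and 1.56 for Serpinh1. From day 0 to day 32 it was -1.49 for Col4a1, -1.71 for Sparc and -2.39 for Serpinh1. Each rests on 1 feeder array per day, and those from day 0 also on the 1 feeder-free array of that day. For Serpinh1 and Sparc the day 0 to day 32 difference lies mostly in the day 0 arrays. The feeder value was 2.41 and 1.50 above the feeder-free one at day 0, and differed by 0.02 and -0.21 at day 32. No group had enough arrays to look for a single array far from the others.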

How the results depend on the processing

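The counts of the 6 genes called from day 0 to day 32 (4 to 5) and from day 17 to day 32 (0) moved by less than 1.5 times under every alternative run. The same held for the culture differences of day 0 to day 7 (5), day 7 to day 17 (6) and day 0 to day 32 (3 to 4). For these differences only 8 arrays, or 9 for day 7 to day 17, could be left out in turn. The remaining ones are single arrays of groups that the difference needs, so the dependence on them was not tested. From day 0 to day 7 the count of 4 became 1 without a culture term and 0 to 5 when leaving out each array. The calls over all genes there went from 2322 to 805, and to 684 to 4448. From day 7 to day 17 the count of 0 became 5 with a mean for each group (36.9% of all genes) and 6 with the feeder-free arrays alone (23.8%). It became 0 to 2 when leaving out each array, where 364 to 2344 of all genes passed. For that interval the replicate block on the feeder-free arrays of days 7, 17 and 32 gave 5 and the same arrays without a block 6. It changed 0 calls from day 17 to day 32. The deviations of same-numbered arrays correlated at 0.03, -0.20 and -0.10, so the numbers were not taken to pair arrays. For the culture term the count of 1 became 4 with a mean for each group and 0 to 3 when leaving out each array. The calls over all genes there went from 4749 to 7699, and to 3738 to 4970.

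Signs turned for changes that did not pass in the full fit, and the cause was not tested. Nid2 from day 7 to day 17 was -0.10 with quantile normalization, -0.011 with centring and -0.12 with a mean for each group, and -0.070 to 0.24 when leaving out each array. Serpinh1 between the cultures was 0.0065 with quantile normalization and 0.12 with a mean for each group, and Lama1 from day 17 to day 32 was 0.027 with centring. When leaving out each array Nid2 ran from -0.10 to 0.32 (day 0 to day 7), -0.28 to 0.033 (day 17 to day 32) and -0.13 to 0.26 (day 0 to day 32), Lama1 from -0.33 to 0.24 and Lamc1 from -0.43 to 0.16 (day 17 to day 32), Sparc from -0.027 to 2.03 (day 0 to day 7) and from -0.56 to 0.21 (between cultures), and Serpinh1 from -0.65 to 0.59 (between cultures). Over all genes the calls ran from 684 to 5348 around 2322 (day 0 to day 7), from 266 to 5347 around 1850 (day 7 to day 17), from 0 to 1184 around 0 (day 17 to day 32), from 2536 to 6577 around 4504 (day 0 to day 32) and from 3738 to 7699 around 4749 (between cultures). With centring the share of rises among the calls for the culture difference went from 49.3% to 59.5% (day 0 to day 7) and from 54.4% to 40.4% (day 7 to day 17).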

Other observations

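Among the proteases of the matrix list, 3 stood high at day 7 without feeder cells and were closer to their day 0 level at day 32, and they were singled out after their values were seen. Plau, the urokinase gene, was 3.96 above day 0 at day 7 and 0.20 above it at day 32. Mmp9, a gelatinase that cleaves type IV collagen, was 2.91 and -0.06 from day 0, and Plat, the tissue plasminogen activator gene, 2.62 and 0.99. On feeder cells the day 7 differences were 0.95 for Plau, 0.98 for Mmp9 and 0.48 for Plat. Their change from day 0 to day 32 did not pass in limma (adjusted p = 0.845, 0.926 and 0.413). Timp3, an inhibitor of metalloproteinases, was 2.80 above day 0 at day 7 and 2.75 at day 32 without feeder cells, and -0.45 and 0.41 from it on them (adjusted p = 0.0533).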
